A study of Mus musculus with 24 samples.

Results

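The genes described here were 10 immediate-early and growth-control genes measured in mouse blood: the Fos-family genes Fos and Fosb, the Jun-family genes Jun, Junb and Jund, the early factors Egr1, Ier2 and Klf6, the phosphatase gene Dusp1, and Myc. They were found by their names among the probes of the array that are not controls, and no measured value was used to choose them. All 10 were among the 15785 genes tested. Each was read by 1 probe, which is present in 10 spots per array for Fos and in 1 spot per array for the other members.

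Immediate-early genes are switched on within minutes of a growth signal or stress, without new protein synthesis. Fos-family proteins pair with Jun-family proteins to form the transcription factor AP-1, whereas Jun-family proteins can also pair among themselves. Dusp1 encodes a phosphatase that switches off the MAP kinases that induce these genes, and Myc encodes a factor that pairs with Max and drives growth genes such as those of ribosome production. In blood, many of these genes are readily expressed by neutrophils and monocytes, and their levels depend on handling as well as on the state of the cells.

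Blood was drawn by cardiac puncture from male C57BL/6J mice 24 h after x-rays, put into an RNA stabilizing solution, and hybridised to 24 one-colour arrays. The 4 groups were Gadd45aKO at 7 Gy (9 arrays), Gadd45aKO at 0 Gy (5 arrays), Gadd45aWT at 7 Gy (5 arrays) and Gadd45aWT at 0 Gy (5 arrays). The labels do not say which part of Gadd45a was deleted, how control mice were bred, or whether the arrays came from separate animals, so the p-values cover only the spread among these arrays, which may be technical. At 24 h the arrays do not show the first hours after exposure, when immediate-early genes are usually studied.

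Values are levels on the log2 scale, relative to the 75th percentile of each array's probes that were above background on all arrays, and can be compared between arrays for 1 probe but not between probes. Gadd45a, a stress-response gene, was at a level of 0.02 ± 0.34 in KO-labelled 7 Gy arrays (SD, n = 9) and 0.52 ± 0.16 in KO-labelled 0 Gy arrays (n = 4), against -1.19 ± 0.32 in WT 7 Gy arrays and 0.67 ± 0.24 in WT 0 Gy arrays (n = 5 each). Its probe was therefore not lower in KO-labelled than in WT arrays at 7 Gy, and the 0 Gy groups differed by -0.15 ± 0.21 (limma, adjusted p = 0.853). Whether this probe lies in the deleted part was not tested, and the group is called KO-labelled throughout.

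Several arrays stood apart. Slides 1 to 5 each held 1 array of every group, and slide 6 held KO-labelled 7 Gy replicates 6 to 9 alone. The share of probes well above background ranged from 25.9% to 51.4% per array. WT 7 Gy replicates 3 to 5 had a summed level of 18 hepatocyte transcripts of 7.21 to 7.37 (log2), against 3.41 and 3.43 in replicates 1 and 2, 2.46 to 3.41 in KO-labelled 7 Gy arrays, -0.26 to 2.69 in KO-labelled 0 Gy arrays and 0.17 to 0.79 in WT 0 Gy arrays. The highest KO-labelled 0 Gy value, 2.69, was that of replicate 5, against -0.26 to 1.45 on the other arrays of that group. Transcripts of liver cells are not a defining feature of blood, so the members' differences and the counts of calls that use the WT 7 Gy arrays are also given without WT 7 Gy replicates 3 to 5. KO-labelled 0 Gy replicates 1 and 4 differed by 0.704 times the spread of repeat spots and were counted as 1 sample, which left n = 4. KO-labelled 7 Gy replicates 1 and 2, its replicates 2 and 4, and WT 7 Gy replicates 1 and 2 also differed by slightly less than repeat spots (0.963 to 0.998 times their spread) and were kept apart, a choice made after seeing these ratios. With them averaged as well, 4 members were called in KO-labelled arrays, Fosb (adjusted p = 0.0644) and Klf6 (adjusted p = 0.0553) no longer among them, against 43.5% of all genes. Repeat spots were noisiest on KO-labelled 7 Gy replicate 3, KO-labelled 0 Gy replicate 2 and WT 0 Gy replicate 1. Tallies over slides 1 to 5, and fits with slide as a block, count the near-identical arrays separately. Slides 1, 2 and 4, which hold those arrays, are therefore not fully independent counts.

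The 250 bases before the RefSeq transcription start show how differently these genes are built and are given for the 6 members that were called in a comparison and have an entry in the table used, with the matches to the searched motifs in capitals. The coordinates are those of GRCm38.p6, whereas the probes are placed on mm9. Fos lies at chr12:85473640-85473889, on the plus strand, Klf6 at chr13:5861239-5861488, on the plus strand, Dusp1 at chr17:26508473-26508722, on the minus strand, Jun at chr4:95052223-95052472, on the minus strand, Fosb at chr7:19310046-19310295, on the minus strand, and Jund at chr8:70697489-70697738, on the plus strand. Each sequence reads 5′ to 3′ along the gene's strand.
Fos: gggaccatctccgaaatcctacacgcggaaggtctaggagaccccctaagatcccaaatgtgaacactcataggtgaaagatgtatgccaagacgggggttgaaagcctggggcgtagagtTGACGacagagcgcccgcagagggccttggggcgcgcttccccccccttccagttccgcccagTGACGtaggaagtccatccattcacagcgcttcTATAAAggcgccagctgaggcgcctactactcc
Fosb: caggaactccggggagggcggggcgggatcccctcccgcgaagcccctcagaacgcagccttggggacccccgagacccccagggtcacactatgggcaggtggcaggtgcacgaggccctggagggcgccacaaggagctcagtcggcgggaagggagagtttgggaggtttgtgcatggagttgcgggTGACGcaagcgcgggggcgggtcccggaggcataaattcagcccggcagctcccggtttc
Klf6: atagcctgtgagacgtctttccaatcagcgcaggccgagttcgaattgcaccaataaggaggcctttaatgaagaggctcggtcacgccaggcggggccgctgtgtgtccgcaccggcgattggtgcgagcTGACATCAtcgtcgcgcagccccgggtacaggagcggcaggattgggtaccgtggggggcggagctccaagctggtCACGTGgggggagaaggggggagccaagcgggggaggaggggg
Dusp1: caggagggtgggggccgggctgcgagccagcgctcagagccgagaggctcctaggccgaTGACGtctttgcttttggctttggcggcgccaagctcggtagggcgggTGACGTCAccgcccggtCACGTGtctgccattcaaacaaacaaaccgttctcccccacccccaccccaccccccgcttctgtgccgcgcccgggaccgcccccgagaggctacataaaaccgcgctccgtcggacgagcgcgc
Jun: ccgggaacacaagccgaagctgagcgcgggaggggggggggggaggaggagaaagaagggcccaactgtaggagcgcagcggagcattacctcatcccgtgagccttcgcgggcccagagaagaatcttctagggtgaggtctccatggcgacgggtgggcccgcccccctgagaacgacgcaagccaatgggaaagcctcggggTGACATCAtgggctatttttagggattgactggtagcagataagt
Jund: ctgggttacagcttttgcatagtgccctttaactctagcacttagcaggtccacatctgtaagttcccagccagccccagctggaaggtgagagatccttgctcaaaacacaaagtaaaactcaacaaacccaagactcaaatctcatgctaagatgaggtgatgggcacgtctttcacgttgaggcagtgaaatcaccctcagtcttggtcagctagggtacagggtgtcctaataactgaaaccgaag

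Searched on both strands, the cyclic AMP response element TGACGTCA was found in Dusp1 and in 1.55% of 32851 promoters of the same length. Its core TGACG, which overlaps that element, was found in Fos, Fosb, Junb and Dusp1 and in 17.8% of promoters. The AP-1-like element TGACATCA was found in Jun and Klf6 and in 2.93% of promoters, and the E-box CACGTG, the sequence that Myc and Max bind, in Klf6 and Dusp1 and in 6.02% of promoters. On the gene's own strand TATAAA was found in Fos and in 7.59% of promoters. The AP-1 element TGACTCA was found in 4.46% of promoters and the CArG box bound by SRF in 1.47%, and neither was found in the windows of the 7 members present in the table. None of the motifs was found in the Jund window. A match of letters is a description and does not show that a factor binds.

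**Figure D1:**
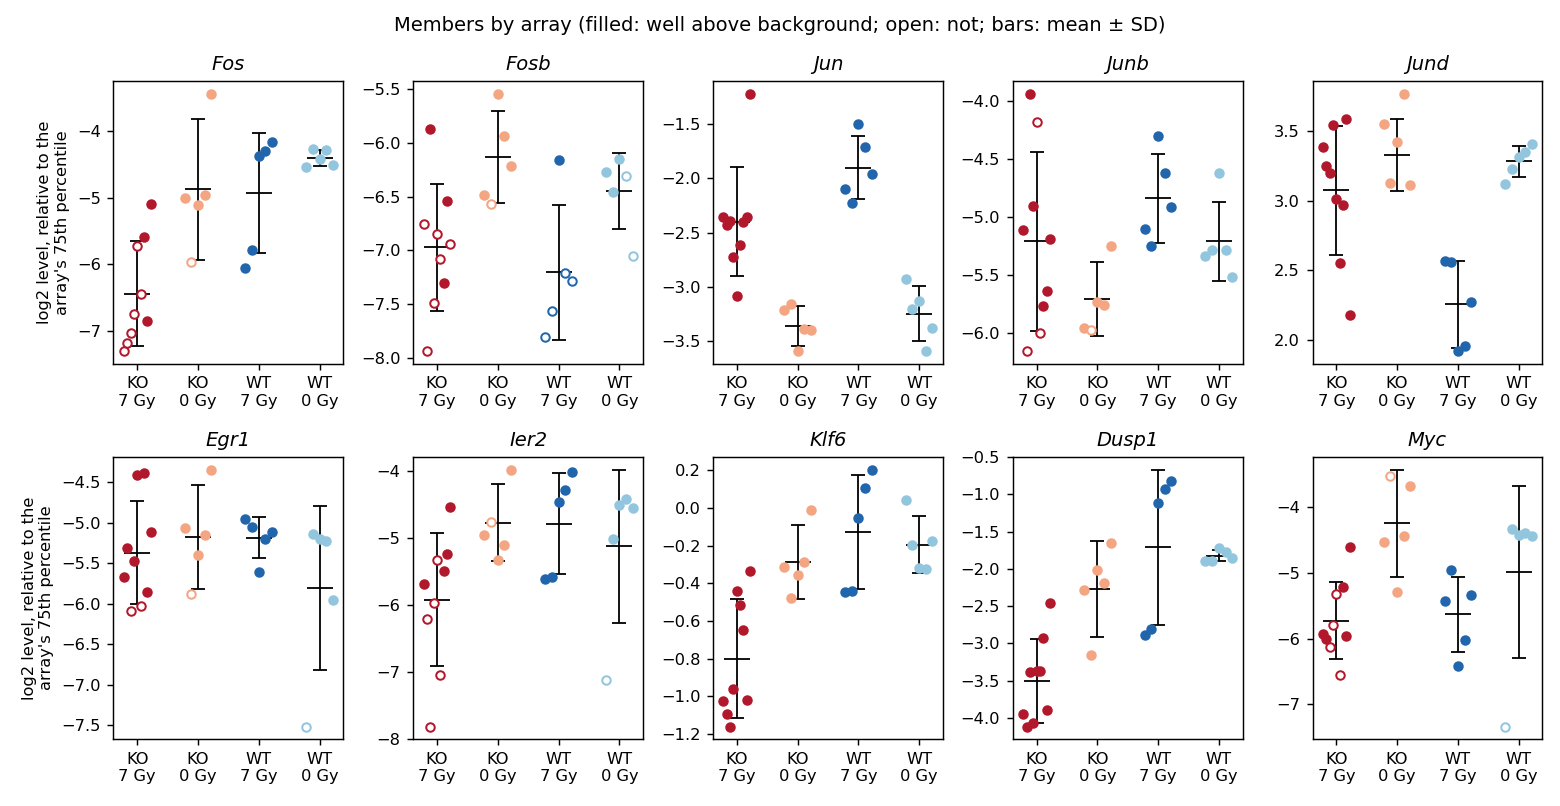
Level of each member on every array (vertical axis, log2 relative to the array's 75th percentile), by group. Filled points were well above background, open points were not, and the bars give the mean ± SD, with replicates 1 and 4 of KO-labelled 0 Gy counted as 1. Jun lies higher in both 7 Gy groups than in their 0 Gy groups without overlap. The WT 7 Gy arrays form a lower pair and a higher trio for Fos, Klf6, Dusp1 and Ier2, and also for Jun, Junb and Fosb. For Jund and Egr1 the same pair lies above the trio.

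At 24 h after 7 Gy, Jun was the member that rose in both genotypes. In KO-labelled arrays, 6 of 10 members changed at an adjusted p under 0.05: Jun rose, and Fos, Fosb, Klf6, Dusp1 and Myc fell. Of all genes tested, 46.9% were called in that comparison (12.4% higher and 34.6% lower), so the share of members called was not far from that of all genes. In WT arrays, 2 of 10 members were called, Jun higher and Jund lower, against 23.6% of all genes. The median change over the members was -0.68 in KO-labelled arrays, beside -0.26 over all genes, and 0.09 in WT arrays, beside -0.05 over all genes. With slide as a block, the calls numbered 8 members in KO-labelled arrays, where 60.2% of all genes were called, and 3 in WT arrays, where 28.0% were called. With normexp background correction in place of the scanner's own, 0 members were called in KO-labelled arrays (2 at an unadjusted p under 0.05, limma), where Fos, Fosb and Myc differed by 0.18, 0.53 and 0.18, and Jund alone was called in WT arrays. All genes called were then 8.76% in KO-labelled and 4.74% in WT arrays. The median over all genes was then 0.46 in KO-labelled and 0.60 in WT arrays, so a positive value is not in itself a rise. Jun was 0.90 in KO-labelled arrays (adjusted p = 0.0963) and 1.08 in WT arrays (adjusted p = 0.0734). Of all genes called in KO-labelled arrays, 26.3% were higher at 7 Gy, and 46.7% with the 75th percentile taken over all probes, where the median over all genes was 0.07.

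**Figure D2:**
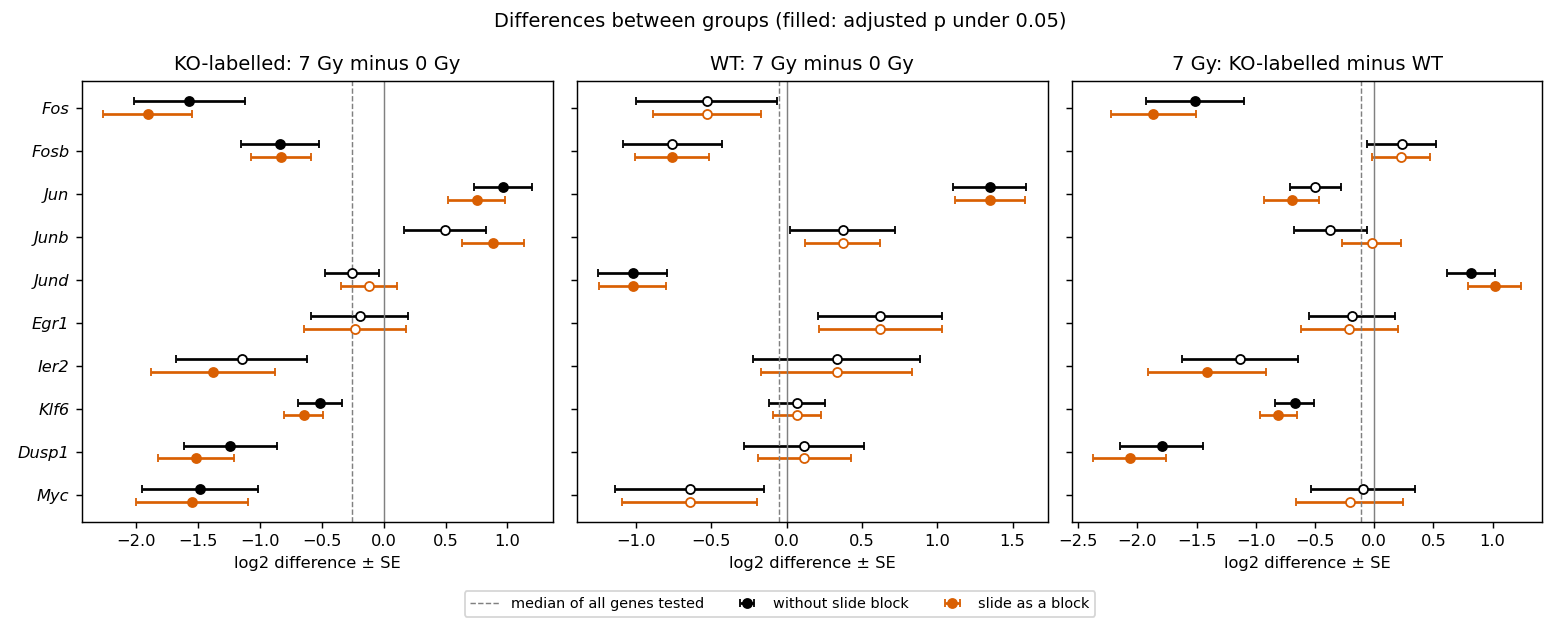
Differences between groups for each member (horizontal axis, log2 difference ± SE), without slide in the model (black) and with slide as a block (orange). Filled points have an adjusted p under 0.05, and the dashed line marks the median over all 15785 genes. Jun lies to the right of 0 in both responses, Jund lies to the left in WT only among the called values, and Fos, Klf6 and Dusp1 lie to the left in KO-labelled arrays and in the comparison at 7 Gy.

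Jun encodes the founding Jun-family subunit of AP-1 and is itself induced by stress through the JNK pathway. Its probe lies at chr4:94716928-94716987 (mm9). Jun levels in KO-labelled 7 Gy arrays ran from -3.09 to -1.22 with a median of -2.40, against -3.21, -3.16, -3.59, -3.39 and -3.40 in KO-labelled 0 Gy arrays. In WT arrays the levels were -2.10, -2.23, -1.50, -1.71 and -1.96 at 7 Gy, against -2.93, -3.21, -3.13, -3.59 and -3.38 at 0 Gy. The doses did not overlap in either genotype, which was so for 24.5% of all genes in KO-labelled arrays and for 28.5% in WT arrays. The rise was 0.96 ± 0.23 in KO-labelled arrays (1.95-fold, limma, adjusted p = 0.00158) and 1.35 ± 0.24 in WT arrays (2.55-fold, adjusted p = 0.000247). Within slides it ranged from 0.31 to 1.20 in KO-labelled arrays and from 0.83 to 1.88 in WT arrays, and was positive on 5 of 5 slides in each. Without WT 7 Gy replicates 3 to 5, the WT rise was 1.08 (adjusted p = 0.0388).

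Jund encodes the Jun-family subunit that is commonly present in resting cells and is regarded as the least inducible of the family. Its probe lies at chr8:73224436-73224495 (mm9). Jund levels in WT arrays were 2.56, 2.56, 1.92, 1.96 and 2.28 at 7 Gy, against 3.12, 3.23, 3.31, 3.35 and 3.40 at 0 Gy, with no overlap. In KO-labelled arrays they ran from 2.18 to 3.59 at 7 Gy with a median of 3.20, against 3.55, 3.13, 3.42, 3.76 and 3.12 at 0 Gy, with overlap. The WT difference was -1.02 ± 0.23 (2.03-fold lower, limma, adjusted p = 0.00200), and the KO-labelled one was -0.26 ± 0.22 (adjusted p = 0.356). Within slides Jund was lower at 7 Gy on 5 of 5 slides in WT, from -1.39 to -0.56, and on 4 of 5 in KO-labelled arrays, from -0.23 to 0.12. Without WT 7 Gy replicates 3 to 5 the WT difference was -0.72 and was no longer called (adjusted p = 0.161).

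Junb encodes a Jun-family subunit that often restrains Jun-driven transcription, and its probe lies at chr8:87501881-87501940 (mm9). Its levels averaged -5.21 ± 0.78 in KO-labelled 7 Gy arrays (SD, n = 9) and -5.71 ± 0.32 in KO-labelled 0 Gy arrays (n = 4), and -4.84 ± 0.38 in WT 7 Gy arrays against -5.21 ± 0.34 in WT 0 Gy arrays (n = 5 each). The groups overlapped, and 3 of 9 KO-labelled 7 Gy arrays were not well above background. The KO-labelled difference of 0.50 ± 0.33 was not called (limma, adjusted p = 0.232), but became 0.88 with slide as a block (adjusted p = 0.00586). It was positive on 4 of 5 slides in KO-labelled arrays and on 5 of 5 slides in WT arrays, where it ranged from 0.03 to 0.67 and was not called, and it was 0.03 without WT 7 Gy replicates 3 to 5 (adjusted p = 0.985).

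Fos encodes the most widely studied partner of Jun in AP-1, and its transcript is normally short-lived. Its probe lies at chr12:86817900-86817959 (mm9). Fos levels in KO-labelled 7 Gy arrays ran from -7.30 to -5.10 with a median of -6.75, against -5.00, -5.97, -5.11, -4.96 and -3.43 in KO-labelled 0 Gy arrays. In WT arrays they were -6.05, -5.78, -4.37, -4.30 and -4.16 at 7 Gy, against -4.53, -4.27, -4.42, -4.27 and -4.50 at 0 Gy. The 0 Gy WT arrays lay close together, whereas the WT 7 Gy arrays split into replicates 1 and 2, below every 0 Gy array, and replicates 3 to 5, beside them. Of the 9 KO-labelled 7 Gy arrays, 3 were well above background for Fos, so the low values there lie near the limit of measurement.

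Fos fell by 1.57 ± 0.45 on the log2 scale in KO-labelled arrays (2.96-fold lower, limma, adjusted p = 0.00603). It was lower on 5 of 5 slides, from -2.30 to -1.22. In WT arrays the difference was -0.53 ± 0.47 (adjusted p = 0.485), made of -1.52 and -1.51 on slides 1 and 2 and of 0.05, -0.03 and 0.34 on slides 3 to 5. Without WT 7 Gy replicates 3 to 5 it was -1.52 (adjusted p = 0.111). The 10 spots of Fos give its error within an array: their SD on the log2 scale had a median of 0.11 on the 17 arrays where Fos was well above background, and of 0.69 on the other 7. Without KO-labelled 0 Gy replicate 5, the highest array of that group, the KO-labelled fall was 1.09 and missed the threshold (difference -1.09, adjusted p = 0.0560).

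Fosb encodes another Fos-family subunit, and its probe lies at chr7:19888168-19888227 (mm9). It was near background throughout: well above it on 3 of 9 KO-labelled 7 Gy arrays and 4 of 5 KO-labelled 0 Gy arrays, and on 1 of 5 WT 7 Gy arrays and 3 of 5 WT 0 Gy arrays. Its levels averaged -6.97 ± 0.59 in KO-labelled 7 Gy arrays and -6.13 ± 0.43 in KO-labelled 0 Gy arrays, and -7.20 ± 0.63 in WT 7 Gy arrays against -6.45 ± 0.35 in WT 0 Gy arrays. The fall of 0.84 ± 0.31 in KO-labelled arrays was called (limma, adjusted p = 0.0317), and the WT difference of -0.76 ± 0.33 was not (adjusted p = 0.105) until slide was a block (adjusted p = 0.0274), and was -1.24 without WT 7 Gy replicates 3 to 5 (adjusted p = 0.0566). In both genotypes Fosb was lower at 7 Gy on 5 of 5 slides. The groups overlapped in both.

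Dusp1 encodes the dual-specificity phosphatase MKP-1, which removes the activating phosphates of p38, JNK and ERK. The files place its probe at chr17:26642526-26642536 (mm9), an entry shorter than the probe. Dusp1 levels in KO-labelled 7 Gy arrays ran from -4.11 to -2.46 with a median of -3.39, against -2.28, -3.16, -2.01, -2.19 and -1.66 in KO-labelled 0 Gy arrays. In WT arrays they were -2.88, -2.81, -1.11, -0.93 and -0.82 at 7 Gy, against -1.89, -1.89, -1.72, -1.78 and -1.85 at 0 Gy. As for Fos, the WT 0 Gy arrays were tight, and WT 7 Gy replicates 1 and 2 lay below all of them while replicates 3 to 5 lay above all of them.

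The fall of Dusp1 in KO-labelled arrays was 1.24 ± 0.38 (2.36-fold lower, limma, adjusted p = 0.00954), and Dusp1 was lower on 5 of 5 slides, from -1.87 to -0.96. The WT difference was 0.12 ± 0.40 (adjusted p = 0.896), and within slides it was -0.99, -0.92, 0.61, 0.85 and 1.03. Without WT 7 Gy replicates 3 to 5 it turned to -1.02 and was not called (adjusted p = 0.126). Dusp1 was well above background on all 24 arrays.

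**Figure D3:**
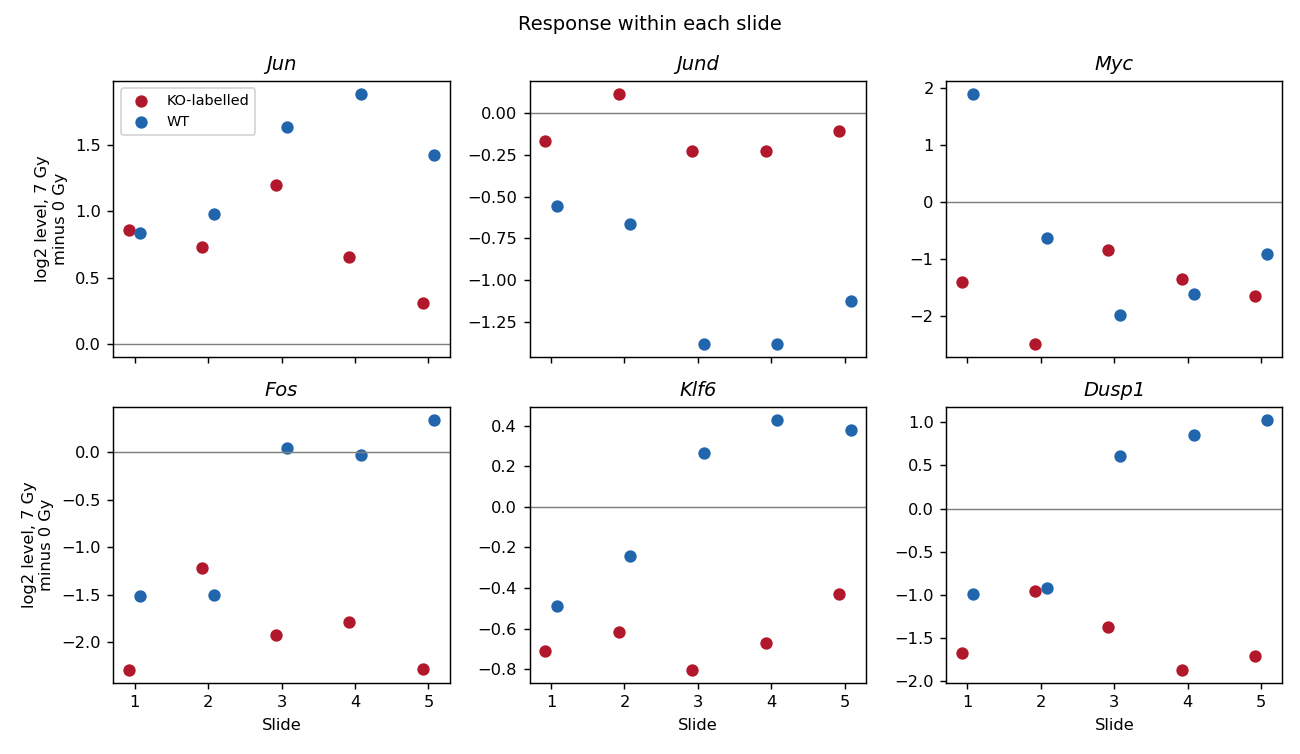
Log2 level at 7 Gy minus that at 0 Gy within slides 1 to 5 (horizontal axis), each holding 1 array per group, for KO-labelled (red) and WT (blue) arrays. Jun is above 0 on all 5 slides in both genotypes, and Fos, Klf6 and Dusp1 are below 0 on all 5 slides in KO-labelled arrays, whereas in WT they are below 0 on slides 1 and 2 and, apart from Fos at -0.03 on slide 4, above 0 on slides 3 to 5.

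Klf6 encodes a zinc-finger factor active in myeloid cells, and its probe lies at chr13:5869371-5869430 (mm9). Klf6 levels in KO-labelled 7 Gy arrays ran from -1.16 to -0.33 with a median of -0.96, against -0.32, -0.48, -0.36, -0.29 and -0.01 in KO-labelled 0 Gy arrays. In WT arrays they were -0.45, -0.44, -0.05, 0.10 and 0.20 at 7 Gy, against 0.04, -0.20, -0.32, -0.33 and -0.17 at 0 Gy. The low pair and the high trio of WT 7 Gy arrays were the same arrays as for Fos and Dusp1. Klf6 fell by 0.51 ± 0.18 in KO-labelled arrays (1.43-fold lower, limma, adjusted p = 0.0203), on 5 of 5 slides, and differed by 0.07 ± 0.19 in WT arrays (adjusted p = 0.864), or by -0.25 without the high trio (adjusted p = 0.639). With the 75th percentile taken over all probes, the KO-labelled difference was -0.19 and was not called (adjusted p = 0.436).

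Ier2, a nuclear early-response protein, averaged -5.93 ± 0.99 in KO-labelled 7 Gy arrays and -4.78 ± 0.57 in KO-labelled 0 Gy arrays, and -4.79 ± 0.75 in WT 7 Gy arrays against -5.12 ± 1.14 in WT 0 Gy arrays. Its probe lies at chr8:87186214-87186273 (mm9). The KO-labelled difference of -1.15 ± 0.53 was not called (limma, adjusted p = 0.0785) without slide in the model and was called with it (-1.37, adjusted p = 0.0244), and it was negative on 5 of 5 slides. The WT levels were -5.62, -5.58, -4.46, -4.29 and -4.02 at 7 Gy, against -7.12, -5.01, -4.51, -4.42 and -4.55 at 0 Gy, and differed by 0.33 ± 0.55 (adjusted p = 0.753), or by -0.47 without WT 7 Gy replicates 3 to 5 (adjusted p = 0.805). Of the 9 KO-labelled 7 Gy arrays, 4 were well above background for Ier2. The lowest WT level, in WT 0 Gy replicate 1, came from one of the noisiest arrays and was not well above background. The same holds for the lowest KO-labelled level, -7.81 in KO-labelled 7 Gy replicate 3.

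Egr1 encodes a zinc-finger factor induced by mitogens through SRF and its cofactors. It averaged -5.37 ± 0.64 in KO-labelled 7 Gy arrays and -5.18 ± 0.64 in KO-labelled 0 Gy arrays, and -5.19 ± 0.25 in WT 7 Gy arrays against -5.81 ± 1.01 in WT 0 Gy arrays. It passed the threshold in no comparison, with or without slide as a block, and its WT difference was 0.80 without WT 7 Gy replicates 3 to 5 (limma, adjusted p = 0.501). WT 0 Gy replicate 1, one of the noisiest arrays, had Egr1 at -7.52, not well above background. Within slides the WT difference was 2.57 on slide 1, which holds that array, and 0.09, -0.40, 0.02 and 0.84 on slides 2 to 5. Of the 9 KO-labelled 7 Gy arrays, 7 were well above background for Egr1.

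Myc levels in KO-labelled 7 Gy arrays ran from -6.55 to -4.60 with a median of -5.93, against -4.54, -3.52, -5.29, -4.44 and -3.67 in KO-labelled 0 Gy arrays. In WT arrays they were -5.43, -4.96, -6.41, -6.01 and -5.34 at 7 Gy, against -7.34, -4.33, -4.43, -4.40 and -4.43 at 0 Gy. The WT groups were separate but for replicate 1 at 0 Gy, which was lower than every other array and not well above background. The Myc probe lies at chr15:61821417-61821476 (mm9). Myc fell by 1.48 ± 0.47 in KO-labelled arrays (2.79-fold lower, limma, adjusted p = 0.0125) and on 5 of 5 slides, from -2.49 to -0.84. Myc was well above background on 5 of the 9 KO-labelled 7 Gy arrays, so the low values there lie near the limit of measurement.

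In WT arrays the Myc difference of -0.65 ± 0.50 was not called (limma, adjusted p = 0.404), and was -0.21 without WT 7 Gy replicates 3 to 5 (adjusted p = 0.914). Without WT 0 Gy replicate 1 it was -1.23 and was called (adjusted p = 0.0222), and it was negative on 4 of 5 slides, the exception being slide 1, which holds that array. In KO-labelled arrays the call was lost without KO-labelled 0 Gy replicate 2 (-1.24, adjusted p = 0.0577) or replicate 5 (-1.29, adjusted p = 0.0545). That replicate 5 decided more than Myc: without it, 1 of 10 members, Jun, was called in KO-labelled arrays, where 41.2% of all genes were, and Fos, Fosb, Klf6, Dusp1 and Myc had adjusted p of 0.0514 to 0.0916. KO-labelled 0 Gy replicate 5 was also the array of its group with the highest hepatocyte sum, 2.69, against -0.26 to 1.45 on the others. The part of this in the calls was not tested.

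The comparison of genotypes after irradiation asked whether the blood of KO-labelled mice differed from WT blood at 7 Gy. Dusp1, Fos and Klf6 were lower in KO-labelled 7 Gy arrays and Jund was higher, so that 4 of 10 members were called, against 22.4% of all genes (4.58% higher and 17.8% lower). Dusp1 differed by -1.79 ± 0.35 (3.47-fold lower, limma, adjusted p = 0.000809), Fos by -1.51 ± 0.41 (2.85-fold lower, adjusted p = 0.0110), Klf6 by -0.67 ± 0.16 (1.59-fold lower, adjusted p = 0.00482) and Jund by 0.82 ± 0.20 (1.76-fold higher, adjusted p = 0.00534). On slides 1 to 5 each of these 4 differences had the same direction on 5 of 5 slides. Jun and Ier2 differed by -0.50 ± 0.21 (adjusted p = 0.102) and -1.13 ± 0.49 (adjusted p = 0.102), and both were called with slide as a block (adjusted p = 0.0250 and 0.0336), where 6 members and 37.9% of all genes were called.

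All 4 calls at 7 Gy were lost without WT 7 Gy replicates 3 to 5. Without these arrays 0 of 10 members were called by limma (0 at an unadjusted p under 0.05), while 7.10% of all genes were, and the differences were -0.66 for Dusp1, -0.53 for Fos, -0.36 for Klf6 and 0.51 for Jund, with adjusted p of 0.315 to 0.660. The WT group then had 2 arrays, which differed by less than repeat spots. The loss of calls therefore cannot show what the calls rested on. On slides 1 and 2, which hold these 2 arrays, the differences were -1.07 and -1.31 for Dusp1 and -1.25 and -1.41 for Fos. They were -0.58 and -0.65 for Klf6 and 0.82 and 0.68 for Jund. Slide 6 holds KO-labelled arrays and no WT array. For Dusp1, the 2 remaining WT arrays, at -2.88 and -2.81, lay within the range of the KO-labelled 7 Gy arrays, and WT 7 Gy replicates 3 to 5 lay above all 9 of them.

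**Figure D4:**
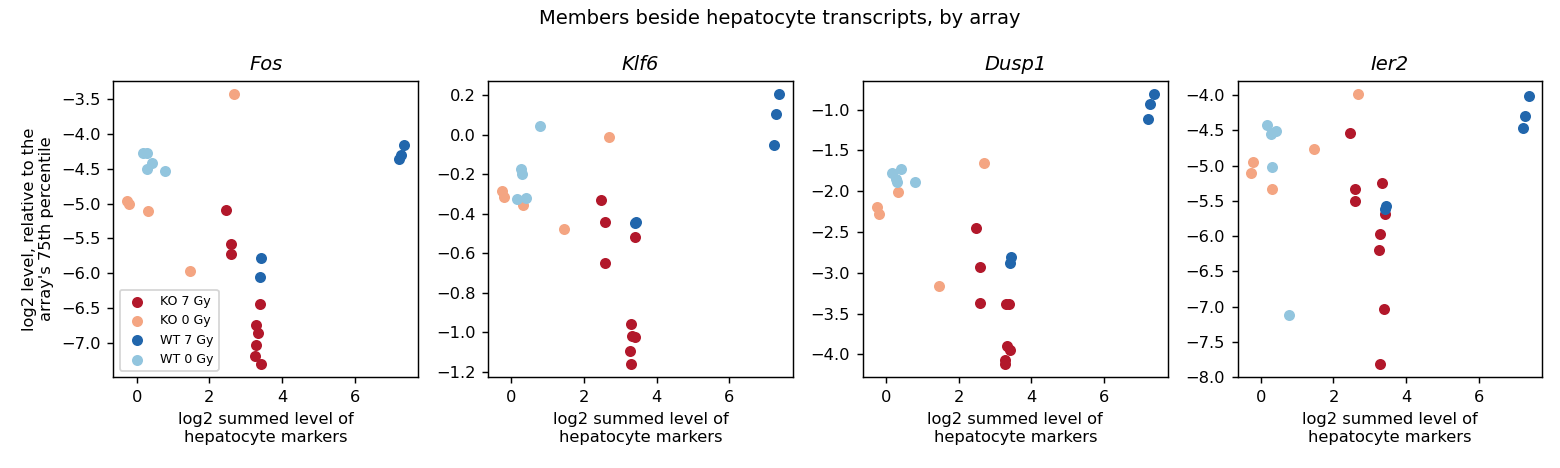
Level of Fos, Klf6, Dusp1 and Ier2 on each array (vertical axis, log2 relative to the array's 75th percentile) against the log2 summed level of 18 hepatocyte transcripts on the same array (horizontal axis), coloured by group. WT 7 Gy replicates 3 to 5 stand apart at 7.21 to 7.37 on the horizontal axis and lie above WT 7 Gy replicates 1 and 2 for all 4 genes.

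The responses of the genotypes were then set against each other in the same model. The difference, KO-labelled response minus WT response, was called for 0 of 10 members by limma (3 at an unadjusted p under 0.05), against 15.1% of all genes. It was -1.35 ± 0.55 for Dusp1 (adjusted p = 0.0946), 0.77 ± 0.32 for Jund (adjusted p = 0.0992), -0.58 ± 0.26 for Klf6 (adjusted p = 0.124) and -1.04 ± 0.65 for Fos (adjusted p = 0.286). With slide as a block these 4 were called: -1.63 for Dusp1 (adjusted p = 0.0103), 0.90 for Jund (adjusted p = 0.0369), -0.71 for Klf6 (adjusted p = 0.0223) and -1.37 for Fos (adjusted p = 0.0465), while 32.5% of all genes were called. With WT 7 Gy replicates 3 to 5 left out, the differences without a block were -0.22 for Dusp1, 0.46 for Jund, -0.26 for Klf6 and -0.05 for Fos, and 0 members (0 at an unadjusted p under 0.05) and 6.10% of all genes were called. The difference between the Jun responses, -0.39 ± 0.34, was not called (adjusted p = 0.454).

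At 0 Gy no member differed between KO-labelled and WT arrays at the threshold. The 10 differences ranged from -0.50 to 0.74, with adjusted p of 0.705 to 0.962 in limma, 0 members passed an unadjusted p under 0.05, and 0.291% of all genes were called. With slide as a block, 0 members were called as well (1 at an unadjusted p under 0.05), against 0.615% of all genes.

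The make-up of the blood moved with these comparisons. The summed level of 10 B cell markers was -2.31 to 0.57 in KO-labelled 7 Gy arrays against 3.34 to 3.67 in KO-labelled 0 Gy arrays, and -2.07 to -0.39 in WT 7 Gy arrays against 3.02 to 3.19 in WT 0 Gy arrays, on the log2 scale. That of 11 neutrophil markers was 3.69 to 5.21 in KO-labelled 7 Gy arrays against 4.46 to 5.88 in KO-labelled 0 Gy arrays, and 5.65, 5.71, 7.09, 7.08 and 7.28 in WT 7 Gy arrays against 6.29 to 6.80 in WT 0 Gy arrays. The WT 7 Gy arrays that were high in Fos, Klf6 and Dusp1 thus also had the highest neutrophil sums. The same arrays were the lowest WT 7 Gy arrays in the sums of T cell (2.21 to 2.26 against 3.01 and 3.04), NK and cytotoxic (2.37 to 2.60 against 3.19 and 3.28) and monocyte markers (3.74 to 3.82 against 4.38 and 4.52). Among KO-labelled 7 Gy arrays, replicate 6 had the highest neutrophil sum, 5.21, with Fos at -6.44. Replicate 9 had the highest Fos level, -5.10, with a neutrophil sum of 3.87. Of the 12 neutrophil markers listed, Mpo was too dim to be tested.

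The 11 monocyte markers summed to 3.45 to 4.49 in KO-labelled 7 Gy arrays and 3.13 to 3.32 in KO-labelled 0 Gy arrays, and to 3.74 to 4.52 in WT 7 Gy arrays against 3.50 to 4.11 in WT 0 Gy arrays. The 10 T cell markers summed to 1.28 to 2.73 in KO-labelled 7 Gy arrays and 2.65 to 2.90 in KO-labelled 0 Gy arrays, and to 2.21 to 3.04 in WT 7 Gy arrays against 2.36 to 2.74 in WT 0 Gy arrays. The 8 NK and cytotoxic markers summed to 1.42 to 2.21 in KO-labelled 7 Gy arrays and 1.78 to 2.49 in KO-labelled 0 Gy arrays, and to 2.37 to 3.28 in WT 7 Gy arrays against 1.62 to 1.74 in WT 0 Gy arrays. The 10 platelet markers summed to 7.07 to 8.14 and 5.18 to 6.58 in KO-labelled 7 Gy and 0 Gy arrays, and to 7.17 to 7.41 and 5.65 to 6.74 in WT 7 Gy and 0 Gy arrays. The sums of 10 erythroid markers overlapped between all groups, from 8.63 to 10.4 over all arrays, but their mean log2 levels were 0.59 to 1.83 in KO-labelled 7 Gy arrays against 1.67 to 2.50 in KO-labelled 0 Gy arrays, and -0.27 to 1.03 in WT 7 Gy arrays against 1.98 to 2.37 in WT 0 Gy arrays, without overlap in WT. The mean log2 levels of the monocyte markers, unlike their sums, overlapped between the KO-labelled groups, at -3.11 to -1.35 at 7 Gy and -2.50 to -1.39 at 0 Gy. In whole blood, fewer cells of a type and less RNA per cell cannot be told apart, and the part of these shifts, of the hepatocyte transcripts and of array quality in the members' differences was not tested.

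Within groups, the members fell into sets that moved together from array to array. Over 23 units, the deviations from the group means were correlated for 45 pairs of members, and 12 pairs passed a two-sided permutation test within groups after Benjamini-Hochberg adjustment over the 45. Fos and Dusp1 had r = 0.89 (rho = 0.87, permutation p = 1e-05, the smallest that 100000 permutations can give, adjusted p = 0.000450), Fos and Klf6 had r = 0.86 (rho = 0.86, permutation p = 4e-05, adjusted p = 0.000900), and Klf6 and Dusp1 had r = 0.78 (rho = 0.76, permutation p = 0.000230, adjusted p = 0.00345). Jund ran the opposite way, with r = -0.73 against Klf6, -0.64 against Dusp1 and -0.62 against Fos (adjusted permutation p = 0.00877, 0.0211 and 0.0274). Egr1, Ier2 and Myc formed another set, with r of 0.74 for Egr1 and Myc, 0.66 for Ier2 and Myc and 0.63 for Egr1 and Ier2 (adjusted permutation p = 0.0211, 0.0267 and 0.0297). On WT 0 Gy replicate 1, one of the noisiest arrays, these genes were at -7.52, -7.12 and -7.34. Each was there the lowest of its group and not well above background, and the part of this array in these r was not tested alone.

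Because the WT 7 Gy arrays form separate clusters, the pairs were also tested without that group, over 18 units, where 8 of 45 passed. Fos and Dusp1 then had r = 0.87 (adjusted permutation p = 0.00525), Fos and Klf6 0.82 (adjusted permutation p = 0.00525), and Klf6 and Dusp1 0.70 (adjusted permutation p = 0.0322). In a separate check that kept WT 7 Gy, the 2 units farthest from the median of the first member were left out of the 23. These pairs then had r = 0.89, 0.83 and 0.77. The set of Egr1, Ier2 and Myc was weaker without the 2 farthest units, at 0.57 for Egr1 and Myc, 0.49 for Ier2 and Myc and 0.48 for Egr1 and Ier2. WT 0 Gy replicate 1 is among the 18 units outside WT 7 Gy. Fosb and Junb had r = 0.64, and 0.44 without the 2 farthest units. Of the Jund pairs, the one with Klf6 passed without WT 7 Gy (r = -0.74, adjusted permutation p = 0.0256), and those with Dusp1 and Fos did not (r = -0.61 and -0.57, adjusted permutation p = 0.108 and 0.134). With slide as a block 11 pairs passed, and Egr1 with Ier2 was not among them (r = 0.54, adjusted permutation p = 0.0624). These members share arrays, so a scaling or depth error of an array moves them together, and that part was not tested beyond a change of scaling, which left 6 pairs.

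**Figure D5:**
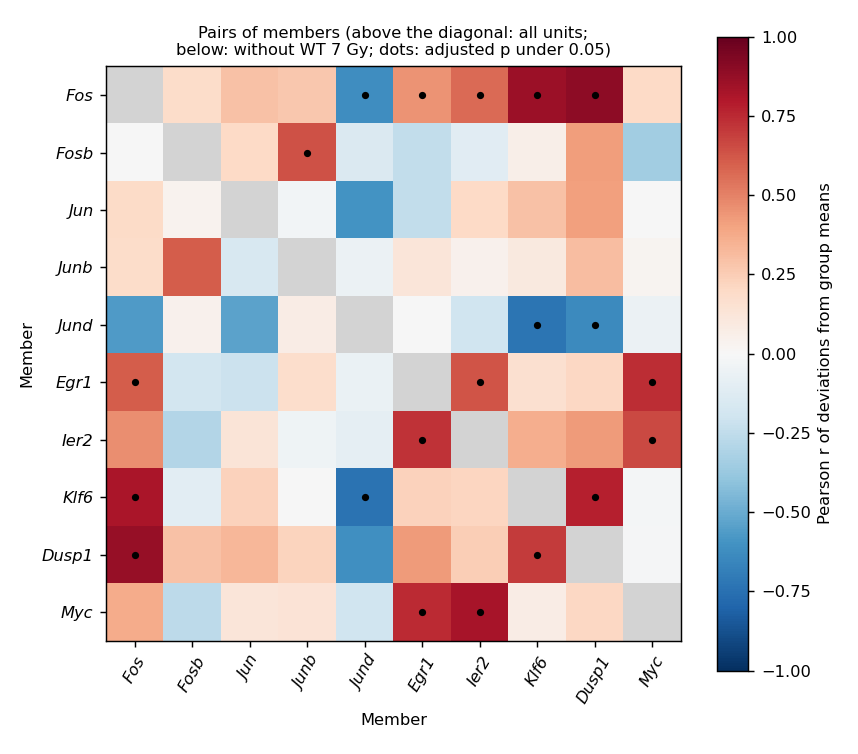
Pearson r between members of their deviations from group means, over all 23 units above the diagonal and over the 18 units outside WT 7 Gy below it. Dots mark pairs with an adjusted permutation p under 0.05. Fos, Klf6 and Dusp1 form a positive block (0.78 to 0.89 above the diagonal) that is negative with Jund, and Egr1, Ier2 and Myc form another.

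Among all genes tested, those whose deviations were most like those of Fos were Zfp217, Daglb and Itgb2, each with r = 0.94 over 23 units, and 0.93, 0.92 and 0.92 over the 18 units outside WT 7 Gy. For Dusp1 they were Pira6, Ifngr2 and Pgd (r = 0.93, 0.93 and 0.92), with 0.85, 0.84 and 0.83 outside WT 7 Gy. For Jun they were Tirap, Tbc1d20 and Myg1 (r = 0.87, 0.82 and 0.82), and for Myc they were Psmg4, Bcl2l12 and Nudt13 (r = 0.91, 0.91 and 0.90). These are the highest of 15784 values each and are given as a description.

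Other genes of the early response were read from a list of 30, of which 24 were tested. In KO-labelled arrays, where 46.9% of all genes were called and 34.6% were lower, 14 fell and 1 rose, and the median change was -1.05, beside -0.26 over all genes. With normexp background 4 fell and no other was called (8 at an unadjusted p under 0.05, limma), and with the 75th percentile over all probes 10 fell and 3 rose. Cd69, an early activation marker of lymphocytes that was well above background on 6 of the 9 KO-labelled 7 Gy arrays, fell by 2.65 ± 0.30 (6.26-fold lower, limma, adjusted p = 4.47e-07), Nr4a1, a nuclear receptor induced by antigen signals, by 2.36 ± 0.29 (5.14-fold lower, adjusted p = 9.89e-07), Csrnp1 by 1.89 ± 0.25 (adjusted p = 2.84e-06) and the mRNA decay factor gene Zfp36l1 by 1.78 ± 0.15 (adjusted p = 7.63e-09). In WT arrays, where 23.6% of all genes were called, 5 fell and 1 rose: Nr4a1 fell by 1.52 ± 0.30 (limma, adjusted p = 0.000650), Ppp1r15a, which encodes the phosphatase subunit GADD34, by 1.25 ± 0.27 (adjusted p = 0.00126) and Cd69 by 1.13 ± 0.32 (adjusted p = 0.0118), and Ier5l rose by 1.11 ± 0.31 (adjusted p = 0.0123). When WT 7 Gy replicates 3 to 5 were left out, 3 of the 24 fell in WT and 0 rose (9 at an unadjusted p under 0.05 in either direction, limma), against 10.4% of all genes called, and these 4 named genes were not among the calls.

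The response of 9 of these 24 genes was lower in KO-labelled than in WT arrays by the test of the difference, which called 15.1% of all genes, with none higher. This count was 4 without KO-labelled 0 Gy replicate 5, 2 with the 75th percentile over all probes and 0 with normexp background (limma, 3 at an unadjusted p under 0.05). They included Csrnp1 (-1.82 ± 0.36, limma, adjusted p = 0.00355) and Tnfaip3, an inhibitor of NF-kappaB (-1.46 ± 0.25, adjusted p = 0.00145). Without WT 7 Gy replicates 3 to 5, 2 were lower and 1 was higher, against 6.10% of all genes called. At 7 Gy, 13 were lower and 1, Ppp1r15a, was higher in KO-labelled than in WT arrays, against 22.4% of all genes. Without those replicates 1 was lower and 1 higher at 7 Gy, against 7.10% of all genes.

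Of 16 AP-1 and ATF partners, 14 were tested. In KO-labelled arrays, where 46.9% of all genes were called, 3 rose and 2 fell: Batf2, an interferon-inducible factor, rose by 1.29 ± 0.44 (limma, adjusted p = 0.0180), whereas Atf2 fell by 0.78 ± 0.21 (adjusted p = 0.00322) and Batf by 0.65 ± 0.16 (adjusted p = 0.00205). In WT arrays, where 23.6% of all genes were called, 2 rose, Maf by 1.19 ± 0.35 (adjusted p = 0.0150) and Crem by 0.54 ± 0.19 (adjusted p = 0.0428), and no other partner was called. With the WT 7 Gy arrays limited to replicates 1 and 2, Maf was 1.70 (adjusted p = 0.0206) and Crem 0.48 and no longer called (adjusted p = 0.288). The KO-labelled calls were 5 higher and none lower with the 75th percentile over all probes, and 1 higher with normexp background. At 7 Gy, where 22.4% of all genes were called, Fosl2, another Fos-family gene, was lower in KO-labelled than in WT arrays by 1.69 (difference -1.69 ± 0.39, adjusted p = 0.00355), as were Jdp2 (-1.35 ± 0.37, adjusted p = 0.0111) and Atf2 (-0.61 ± 0.19, adjusted p = 0.0240). With WT 7 Gy replicates 3 to 5 left out, 0 of the 14 were called at 7 Gy by limma (1 at an unadjusted p under 0.05), against 7.10% of all genes.

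Of 10 further dual-specificity phosphatase genes, 8 were tested. In KO-labelled arrays 3 rose and 1 fell, against 46.9% of all genes called, and in WT arrays 2 rose and 1 fell, against 23.6%. Dusp2, a phosphatase of activated lymphocytes and myeloid cells, fell by 2.35 ± 0.17 in KO-labelled arrays (5.10-fold lower, limma, adjusted p = 6.50e-10), and its response was lower than in WT by the test of the difference (-2.83 ± 0.24, adjusted p = 9.75e-07). It was the 1 phosphatase of the 8 whose difference was called, against 15.1% of all genes. The same held with slide as a block, against 32.5% of all genes, and without WT 7 Gy replicates 3 to 5, against 6.10%. With normexp background Dusp2 was not called (-2.04, limma, adjusted p = 0.181). Dusp7 and Dusp3 rose in both genotypes: Dusp7 by 1.99 ± 0.38 in KO-labelled arrays (adjusted p = 0.000166) and 1.19 ± 0.40 in WT arrays (adjusted p = 0.0320), and Dusp3 by 1.22 ± 0.19 (adjusted p = 1.88e-05) and 0.70 ± 0.20 (adjusted p = 0.0134). In WT arrays without replicates 3 to 5 at 7 Gy, Dusp7 was 1.83 (adjusted p = 0.0213) and Dusp3 0.55 and no longer called (adjusted p = 0.268), and normexp background left 0 of the 8 called there (limma, 2 at an unadjusted p under 0.05). Dusp16 rose by 0.99 ± 0.40 in KO-labelled arrays (adjusted p = 0.0473).

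Among 19 kinases and factors upstream of the early genes, all tested, 8 fell and 1 rose in KO-labelled arrays, a share near the 46.9% of all genes, and 2 fell in WT arrays, against 23.6% of all genes. With normexp background 1 fell in KO-labelled arrays. In KO-labelled arrays Srf, the factor that binds CArG boxes, fell by 1.64 ± 0.47 (limma, adjusted p = 0.00621), its cofactor Mrtfb, well above background on 5 of the 9 arrays at 7 Gy, by 1.74 ± 0.35 (adjusted p = 0.000338) and the ERK-pathway kinase Map2k1 by 1.64 ± 0.29 (adjusted p = 9.56e-05). In WT arrays Map2k2 fell by 0.54 ± 0.18 (adjusted p = 0.0286) and Mapk7 by 0.51 ± 0.14 (adjusted p = 0.0101), and without replicates 3 to 5 at 7 Gy they differed by -0.31 (adjusted p = 0.529) and -0.69 (adjusted p = 0.0204). By the test of the difference 3 of the 19 were called, all lower in KO-labelled arrays, near the 15.1% of all genes. They included Mrtfa (-1.04 ± 0.23, limma, adjusted p = 0.00654) and Rps6ka1 (-0.81 ± 0.25, adjusted p = 0.0337). When WT 7 Gy replicates 3 to 5 were left out, 1 of the 19 was called by that test, against 6.10% of all genes. With the 75th percentile over all probes the 3 lower calls were lost and 2 genes were called higher, and with normexp background 0 were called (limma, 2 at an unadjusted p under 0.05).

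For Myc, the other genes of its network and its reported target genes were read as separate lists. Of 14 network genes 8 were tested: in KO-labelled arrays, where 46.9% of all genes were called, Bin1, which encodes a Myc-binding adaptor, rose by 1.73 ± 0.23 (limma, adjusted p = 3.92e-06), while Mlxip, Mga and the Max partner Mnt fell by 2.14 ± 0.40, 0.97 ± 0.18 and 0.90 ± 0.20 (adjusted p = 0.000136, 0.000161 and 0.000707). Of the 9 KO-labelled 7 Gy arrays, 4 were well above background for Mlxip and 2 for Mga. In WT arrays, where 23.6% of all genes were called, Mxd4, which encodes a Max partner that opposes Myc, rose by 1.08 ± 0.18 (adjusted p = 9.57e-05) and Bin1 by 0.76 ± 0.25 (adjusted p = 0.0271). Of 30 target genes 27 were tested, and 20 fell and 2 rose in KO-labelled arrays, where 46.9% of all genes were called, with a median of -1.33 beside -0.26 over all genes. With normexp background 1 fell and 1 rose in KO-labelled arrays and 0 were called in WT arrays (limma, 5 and 2 at an unadjusted p under 0.05). With the scanner's own background correction, the ribosome-assembly genes Nolc1, Nop58 and Nop56 fell in KO-labelled arrays by 1.76 ± 0.22, 1.70 ± 0.20 and 1.57 ± 0.18 (limma, adjusted p = 1.24e-06, 5.96e-07 and 4.05e-07).

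In WT arrays, where 23.6% of all genes were called, 9 of these 27 targets fell and no other was called (13 at an unadjusted p under 0.05, limma), with a median of -0.46 beside -0.05 over all genes: Npm1 fell by 0.90 ± 0.22, Nop58 by 0.90 ± 0.21 and Ddx18 by 0.74 ± 0.14 (limma, adjusted p = 0.00344, 0.00278 and 0.000284). With WT 7 Gy replicates 3 to 5 left out, 0 of the 27 fell and 1 rose in WT (5 at an unadjusted p under 0.05 in either direction, limma), against 10.4% of all genes called. The difference between the responses was called for 5 of the 27, all lower in KO-labelled arrays, a share near the 15.1% of all genes. Among them was Shmt2, a mitochondrial enzyme of folate metabolism (-1.75 ± 0.35, limma, adjusted p = 0.00383). The difference was called for 3 without those replicates, against 6.10% of all genes. It was called for 1 without KO-labelled 0 Gy replicate 5, 1 with the 75th percentile over all probes and 0 with normexp background (limma, 0 at an unadjusted p under 0.05). At 0 Gy none of the genes of these 6 lists differed between KO-labelled and WT arrays (limma, 0 of 100 called, 10 at an unadjusted p under 0.05) without a block. With slide as a block, Dusp2 and Tnfaip3 were called higher, by 0.83 (adjusted p = 0.0483) and 0.74 (adjusted p = 0.0304).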

How the data were processed

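RNA from whole blood of 24 samples was labelled with Cy3 and hybridised to 24 one-colour arrays, 1 sample per array. The authors' files give the intensity of each spot, read with Agilent Feature Extraction, per the file headers (12.0.2, per the submitters' processing notes); the processed signal was background-subtracted and detrended by the scanner software and is not scaled between arrays. The authors also deposited processed log2 values. They cover 12900 entries, of which 12863 are no controls. Set against the scanner files, these log2 values equalled the log2 of the processed signal, with values under 10 raised to 10, plus a constant per array (at least 98.45% of entries on each array within 0.01). The log base and floor of that table thus come from the values, and it held 0 columns outside the series. Fosb was not analysed in it. Gene names come from the accession in the files for 28663 probes, through RefSeq, from current or older symbols for 3300 and 160, and otherwise from the files (7306). Sequences are RefSeq's (GRCm38.p6), with promoters for 7 of 10 members.

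Spots flagged as outliers were left out and spots of a probe averaged. From the log2 processed signal, each array's 75th percentile was subtracted, taken over 7803 probes that every array measured well above background. Of 39429 probes, 19648 were well above background on at least 5 arrays, and the brightest probe stood for each of 15785 genes. A single limma 3.58.1 fit (R 4.3.3) of the 4 groups, over 23 units, gave all comparisons; calls are at a Benjamini-Hochberg adjusted p under 0.05 over all genes, two-sided, and errors of differences are standard errors. KO-labelled 0 Gy replicates 1 and 4 differed by 0.704 times the spread of repeat spots and were averaged. The limit of 0.9 was chosen after seeing these ratios: the planned rule, arrays that differ by no more than repeat spots, taken as a ratio under 1, also covers 3 further pairs (0.963 to 0.998), which are averaged in an alternative. Fits with slide or replicate number as a block keep all arrays, and there the arrays of slide 6 add nothing to the size of the differences. Tables used Python 3.11.15, pandas 2.3.3, NumPy 2.4.6, SciPy 1.17.1 and the R package data.table (1.17.8), and figures matplotlib 3.10.9. The fit was tested on simulated data. Array number and signal over background limit the precision.

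The members, the marker lists (B cell, T cell, NK and cytotoxic, neutrophil, monocyte, erythroid, platelet and hepatocyte) and the 6 gene lists were chosen with earlier results of these data known. Named genes are the members, Gadd45a, the 3 genes most like Fos, Jun, Dusp1 and Myc, and up to 4 called genes per list and comparison with the largest change; some of these are not reported here. Alternatives changed the scaling, background correction, filter, probe choice, blocks, averaging and arrays used; the extra settings for the pairs of members were chosen after seeing the data.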

Additional observations from a re-analysis of the deposited data

Results flagged for a closer look

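Among 40 sets of a member's values in a group, 4 held an array far from the others by Dixon's test, where chance gives about 1 in 20. Myc stood at -7.34 and Ier2 at -7.12 in WT 0 Gy replicate 1, the lowest of their group, and neither was well above background on that array. Junb stood at -4.62 in WT 0 Gy replicate 3, the highest of its group. Jun stood at -1.22 in KO-labelled 7 Gy replicate 9, the highest of the 9.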

How the results depend on the processing

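Of 350 values of single members under alternatives other than leaving out 1 array, 286 kept their direction and side of the threshold, 31 lost a call, 22 gained one and 11 changed sign. This tally covers a part of the members' results. It holds none for Egr1 or for the comparison at 0 Gy, and none for Junb in WT or Jund in KO-labelled arrays. Jun rose at an adjusted p under 0.05 in both genotypes in 13 of 14 such alternatives, the exception being normexp, and with each of the 24 arrays left out in turn. With normexp background, WT Fos, Fosb and Myc were 0.47, 0.84 and 0.44 and KO-labelled Fos, Fosb, Ier2 and Myc 0.18, 0.53, 0.35 and 0.18, beside medians over all genes of 0.60 in WT and 0.46 in KO-labelled arrays. There, 1 member was called in WT, 0 in KO-labelled and 0 at 7 Gy (limma, 2, 2 and 3 at an unadjusted p under 0.05), and 748, 1383 and 229 genes, 0 for the difference between the responses and 1 at 0 Gy. Without WT 7 Gy replicates 3 to 5, WT Ier2, Klf6 and Dusp1 were -0.47, -0.25 and -1.02, 1 member was called in WT and 0 at 7 Gy (limma, 5 and 0 at an unadjusted p under 0.05), and 1646 genes in WT, 963 for the difference and 1120 at 7 Gy. Without the noisy arrays, WT Ier2 was -0.17, and 1349 genes were called for the difference and 30 at 0 Gy. With the 75th percentile over all probes, 1468 genes and 1 member were called for the difference, 19 genes at 0 Gy and 6 pairs of members; of the calls, 60.4% for the difference and 48.1% at 7 Gy were higher, against 21.2% and 20.5%. Quantile normalization called 1093 genes for the difference. In the authors' value table, 2 members were called in KO-labelled arrays and 2 at 7 Gy, and 555 genes for the difference, 1675 at 7 Gy and 15 at 0 Gy. Over probes well above background on all arrays, 6756 genes were tested, and of the members Jun, Jund, Klf6 and Dusp1 alone. Of these members 3 were called in KO-labelled arrays, and of the genes 2163 in WT, 3863 in KO-labelled and 2043 at 7 Gy. With no filter, 989 genes were called for the difference and 9 at 0 Gy. With no arrays averaged, 79 genes were called at 0 Gy, and with near-identical arrays averaged 29. With slide as a block, 5126 genes and 4 members were called for the difference, 5988 genes at 7 Gy and 97 at 0 Gy. With the replicate number as a block, these were 6203 genes, 4 members, 6810 genes and 297 genes; deviations of same-numbered arrays correlated from 0.0462 to 0.423 in WT and from 0.0762 to 0.729 in KO-labelled arrays, not above 0.1 for every number, and not every array correlated best with its own number; same-numbered arrays also share a slide, and the labels give no other link. With 1 array left out in turn, WT Ier2 ranged from -0.17 to 0.54, WT Klf6 from -0.014 to 0.15 and WT Dusp1 from -0.11 to 0.41, members called in KO-labelled arrays from 1 (without KO-labelled 0 Gy replicate 5) to 7, genes called for the difference from 1355 to 3565, members for it from 0 to 2 (without KO-labelled 7 Gy replicate 9), and genes at 0 Gy from 12 to 68. The cause of these changes was not tested. The settings for the pairs of members were chosen after seeing the data. Signal over background limits Fosb, Fos, Ier2 and Myc most.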
